A study of Mus musculus with 21 samples.

Results

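The 9 genes described here encode cell adhesion proteins of the synapse: the neurexins Nrxn2 and Nrxn3, the neuroligins Nlgn1, Nlgn2 and Nlgn3, the leucine-rich repeat transmembrane proteins Lrrtm1, Lrrtm2 and Lrrtm3, and N-cadherin, Cdh2. They were taken by symbol from a table of 16318 genes, and all 9 had enough reads to be among the 16303 genes tested.

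RNA was sequenced from the whole brains of 21 mice, with 1 library per mouse, to ask how a blocker of the potassium channel Kv1.3 alters expression in the aging brain. All mice were SAMP8, an inbred senescence-prone line without a transgene. HsTX1[R14A], a peptide that blocks Kv1.3, had been injected under the skin of 9 mice (3 female and 6 male) at 1 mg/kg on alternate days for 8 weeks, from 4 to 6 months of age, and 12 mice (6 female and 6 male) had received phosphate-buffered saline (PBS) on the same schedule. The SAMR1 control strain was not analysed here, so every value below compares SAMP8 mice with SAMP8 mice. Libraries held 14917171 to 36207536 estimated counts in PBS mice and 17552394 to 47613770 in HsTX1[R14A] mice, and levels are counts per 1000000 (CPM) after TMM scaling, which corrects for differences in library composition. Markers of neurons, astrocytes, oligodendrocytes, microglia and endothelium were all detected. Long transcripts took a larger share of the counts in some libraries than in others. Regressing each library's log2 CPM, centered on each gene's mean, on the log2 length of the longest transcript gave a length slope, which ran from -0.38 to 0.15 in PBS mice and from -0.14 to 0.23 in HsTX1[R14A] mice. The lowest slopes belonged to PBS mice 103 and 90, which stand apart in several of the results below. The libraries are named in 2 forms. The common form was used for 15 libraries, 10 of them from PBS mice, and the other form for 6, of which 4 were from HsTX1[R14A] mice. What the forms stand for is not stated.

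Neurexins sit mainly on the presynaptic side, where their extracellular domains bind partners across the cleft. Neuroligins and LRRTMs are postsynaptic partners that compete for neurexins and take part in the assembly of receptors and scaffolds. Neuroligin 1 is found mainly at excitatory synapses, neuroligin 2 mainly at inhibitory synapses, and neuroligin 3 at synapses of either kind. N-cadherin binds its like on the facing membrane and is anchored to actin through catenins.

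The genes differ in base composition, and the libraries differed along it too. A GC slope was built like the length slope, on the GC content of the longest transcript. Per 10 percentage points it ran from -0.31 to 0.15 in PBS mice and from -0.14 to 0.20 in HsTX1[R14A] mice. The ends of the coding sequences are shown for all members but Lrrtm2 and Cdh2, whose sequences are not reported here. Each is the last 90 bases up to and including the stop codon of the longest complete coding sequence in the GENCODE annotation of GRCm38. Capitals mark a G or C at the last position of a codon, where the base can often change without changing the protein.
Nrxn2: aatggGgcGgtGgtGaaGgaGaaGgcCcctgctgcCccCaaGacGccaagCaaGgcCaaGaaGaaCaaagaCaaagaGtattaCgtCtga
Nrxn3: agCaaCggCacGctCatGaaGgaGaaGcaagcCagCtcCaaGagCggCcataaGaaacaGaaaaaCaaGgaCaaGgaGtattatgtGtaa
Nlgn1: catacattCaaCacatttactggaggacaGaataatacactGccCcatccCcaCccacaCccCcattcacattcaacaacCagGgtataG
Nlgn2: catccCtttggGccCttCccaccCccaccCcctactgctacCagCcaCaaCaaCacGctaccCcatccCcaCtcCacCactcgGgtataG
Nlgn3: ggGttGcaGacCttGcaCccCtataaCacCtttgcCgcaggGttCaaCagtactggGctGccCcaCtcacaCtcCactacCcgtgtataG
Lrrtm1: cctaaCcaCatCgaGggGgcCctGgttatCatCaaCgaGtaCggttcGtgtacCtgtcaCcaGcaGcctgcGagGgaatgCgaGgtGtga
Lrrtm3: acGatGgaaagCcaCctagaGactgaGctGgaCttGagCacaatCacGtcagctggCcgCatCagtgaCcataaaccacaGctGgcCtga

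The stretches shown were aligned from the stop codon without gaps. Within the neuroligin family, 47 of 90 bases were identical between Nlgn1 and Nlgn2, 41 between Nlgn2 and Nlgn3 and 34 between Nlgn1 and Nlgn3. Pairs from different families shared 20 (Nrxn2 and Nlgn1) to 30 (Nrxn3 and Lrrtm1) of 90. Of the 30 codons shown, 12 end in G or C in Nlgn1, 19 in Nlgn2 and 21 in Nlgn3. Over the whole coding sequence, 43.5% of codons ended in G or C in Nlgn1, 73.7% in Nlgn2 and 63.1% in Nlgn3. Nrxn2 (77.0%) was likewise richer than Nrxn3 (63.0%), and Lrrtm1 (77.8%) richer than Lrrtm3 (63.6%). Over the longest transcript as a whole, GC content was 62.4% in Nrxn2, 60.7% in Nlgn2, 54.7% in Lrrtm1, 49.5% in Cdh2, 49.3% in Nlgn3, 47.5% in Nrxn3, 44.5% in Lrrtm3, 38.9% in Nlgn1 and 38.4% in Lrrtm2.

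Among the genes searched, which again left out Lrrtm2 and Cdh2, promoter windows from RefSeq (GRCm38.p6) were at hand for 5. Each window spans 250 bases before to 50 bases after an annotated start. The 250 bases before the start are shown for Nlgn2, on the minus strand at chr11:69837785-69838034, and for a start of Nlgn1, on the minus strand at chr3:26331910-26332159, because these neuroligins lay farthest apart in the treatment comparison. Capitals mark GGGCGG, the core of the GC box, which was searched on both strands.
Nlgn2: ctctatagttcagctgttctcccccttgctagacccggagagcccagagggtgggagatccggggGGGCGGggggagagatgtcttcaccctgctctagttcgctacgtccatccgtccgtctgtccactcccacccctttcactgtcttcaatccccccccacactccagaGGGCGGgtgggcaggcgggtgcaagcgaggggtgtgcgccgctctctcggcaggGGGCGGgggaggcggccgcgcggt
Nlgn1: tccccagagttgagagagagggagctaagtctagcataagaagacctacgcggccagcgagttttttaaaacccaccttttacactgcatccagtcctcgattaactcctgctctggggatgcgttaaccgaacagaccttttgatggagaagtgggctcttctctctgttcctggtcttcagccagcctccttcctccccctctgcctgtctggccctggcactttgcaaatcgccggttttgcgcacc
The Nlgn2 window had a GC content of 68.7% and 26 CpG dinucleotides, and the Nlgn1 window shown 55.7% and 14, against a median of 52.7% and 7 over the 32851 windows of the table. Another Nlgn1 window, not shown, had 44.7% and 6. The start of Nlgn2 matched a GENCODE transcript, and neither start of Nlgn1 did. GGGCGG was present in 35.7% of all windows of this length. These letters describe the windows only, since no readout of binding or methylation was made.

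Per kb of longest transcript, the neurexins were the most abundant of the 9 genes in PBS mice. This scale takes the longest annotated transcript, whether or not it was the one expressed, and does not correct for GC content. The order between genes is therefore a description. Nrxn3 measured 32.3 ± 3.33 CPM per kb (SD, n = 12) and Nrxn2 30.8 ± 11.1, followed by Lrrtm2 at 25.2 ± 4.23, Nlgn2 at 23.1 ± 9.94, Cdh2 at 19.5 ± 2.72, Lrrtm3 at 16.5 ± 2.75, Lrrtm1 at 11.9 ± 2.62, Nlgn1 at 8.96 ± 0.796 and Nlgn3 at 8.96 ± 2.25. The order at the top and at the bottom did not hold from mouse to mouse: Nrxn3 was above Nrxn2 in 5 of 12 PBS mice, Nrxn2 above Lrrtm2 in 8, Lrrtm2 above Nlgn2 in 7 and Nlgn1 above Nlgn3 in 5. In the middle it held in most, with Nlgn2 above Cdh2, Cdh2 above Lrrtm3 and Lrrtm3 above Lrrtm1 in 9 of 12 mice each, and Lrrtm1 above Nlgn1 in 11. In HsTX1[R14A] mice Nrxn2 came first, at 46.9 ± 12.7 CPM per kb (SD, n = 9), and was above the next gene, Nlgn2 at 37.4 ± 11.9, in 9 of 9 mice. Nlgn1 was last in that group at 8.43 ± 0.964 CPM per kb and lay below Nlgn3, at 12.6 ± 2.63, in 7 of 9 mice.

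Treatment with HsTX1[R14A] went with higher levels of 5 of the 9 genes and lower levels of none, at an adjusted p of at most 0.05 (edgeR's quasi-likelihood test with sex in the model and Benjamini-Hochberg adjustment over all genes). The 5 were Nlgn2, Nrxn2, Nlgn3, Lrrtm1 and Cdh2, at log2 fold changes from 0.38 to 0.75. Lrrtm2, Nrxn3, Nlgn1 and Lrrtm3 did not pass, at -0.24, 0.17, -0.10 and -0.01. Calls were common in this comparison, with 31.6% of all tested genes called in either direction and 15.5% called higher. The 5 genes that rose were also the 5 with the highest GC content in their longest transcripts, and no call was left when the length slope of each library was added to the model, as set out below. In whole tissue, fewer cells of a type and less RNA per cell cannot be told apart.

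**Figure D1:**
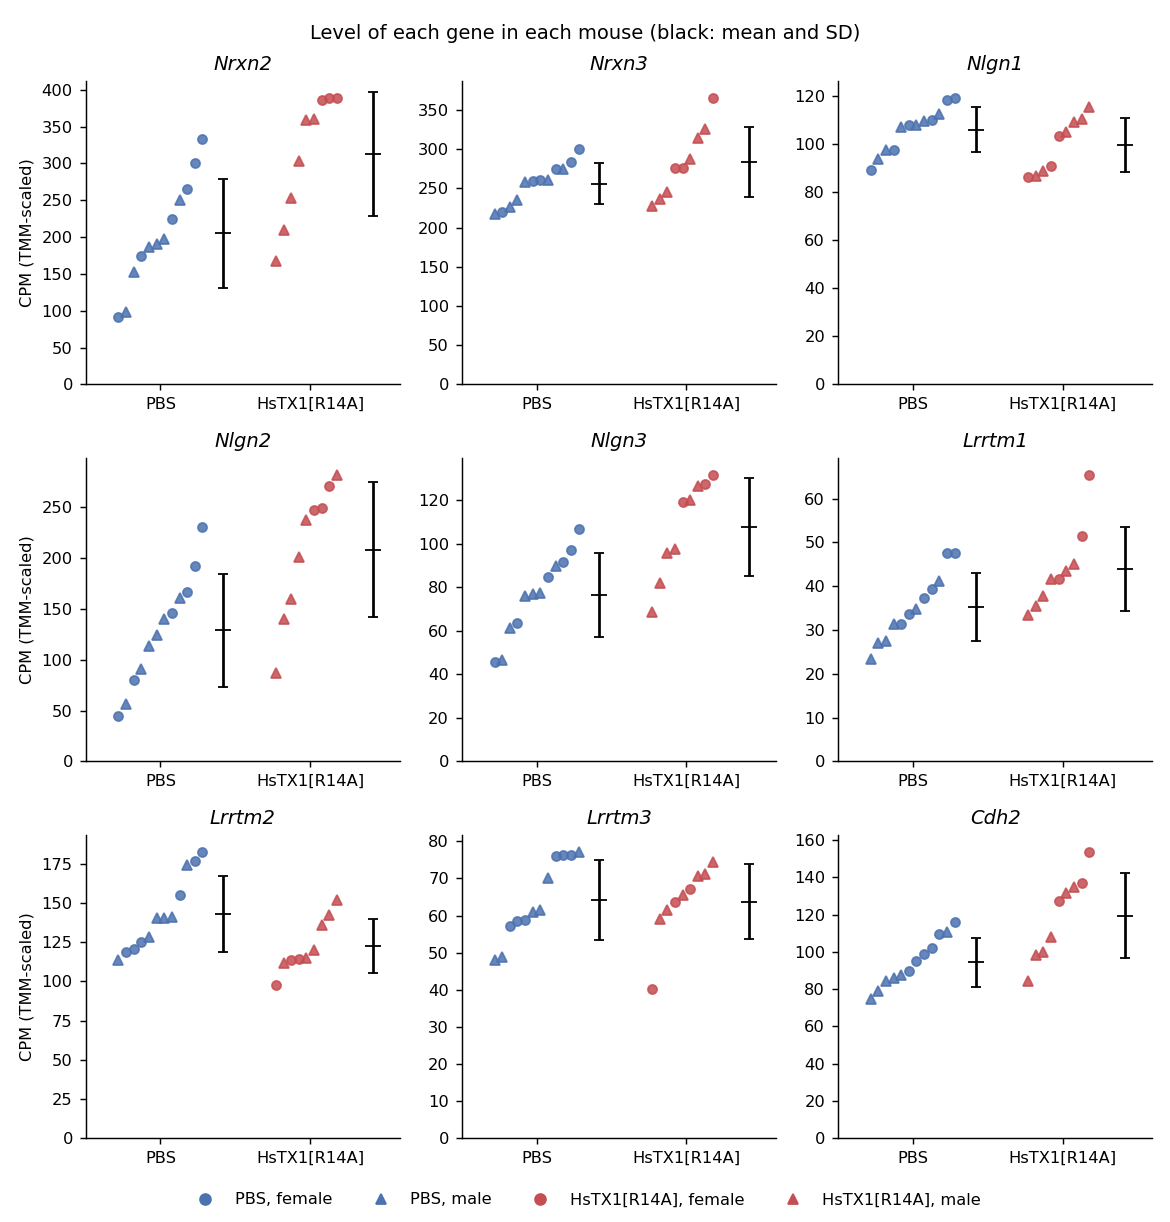
Level of each of the 9 genes in each mouse, in TMM-scaled CPM on a linear axis from 0, for 12 PBS and 9 HsTX1[R14A] mice. Circles are females and triangles males, mice are ordered by level within a group, and the black bar gives the mean and SD. The groups overlap for every gene, and Nrxn2, Nlgn2 and Nlgn3 show a wide spread within each treatment.

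Nrxn2 (ENSMUSG00000033768, chromosome 19 of GRCm38, 6418731 to 6544169) encodes neurexin 2. Its lowest, median and highest levels were 91.0, 194 and 334 CPM in PBS mice and 167, 359 and 389 CPM in HsTX1[R14A] mice. The lowest brains were those of PBS mice 103 and 90, and the 3 treated females lay together at the top, between 386 and 389 CPM. Of the 9 treated mice, 5 were above every PBS mouse. The mean was 205 ± 74.2 CPM (SD, n = 12) against 313 ± 84.4 CPM (SD, n = 9), and Nrxn2 rose 1.59-fold, or by 0.67 on the log2 scale (standard error 0.19, adjusted p = 0.0213, edgeR).

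Nrxn3 (ENSMUSG00000066392, chromosome 12, 88722876 to 90334935), a gene of 1612060 bases that encodes neurexin 3, ran from 217 through a median of 259.9 to 301 CPM in PBS mice and from 227 through 276 to 365 CPM in HsTX1[R14A] mice. The groups overlapped over most of their range, with 6 of 9 treated mice above the PBS median. Treated minus PBS came to 0.17 on the log2 scale (standard error 0.08, adjusted p = 0.103, edgeR), which did not pass the threshold. The difference between the neurexins was tested as a ratio and is given with the other ratios.

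Nlgn2 (ENSMUSG00000051790, chromosome 11, 69823122 to 69837784), the neuroligin of inhibitory synapses, had the largest fold change of the 9 genes. Its lowest, median and highest levels were 44.7, 133 and 231 CPM in PBS mice and 86.5, 238 and 282 CPM in HsTX1[R14A] mice. PBS mice 103 and 90 were again lowest, HsTX1[R14A] mouse 93 lay among the lower PBS mice, and 8 of 9 treated mice were above the PBS median. Nlgn2 rose 1.68-fold, or by 0.75 on the log2 scale (standard error 0.24, adjusted p = 0.0296, edgeR). The call was lost without PBS mouse 90 (adjusted p = 0.0565) or without HsTX1[R14A] mouse 98 (0.0543), 88 (0.0526) or 81 (0.0583), although the log2 fold change then stayed between 0.66 and 0.72. It was also lost with no sex term (0.0545) or with the library name form as a covariate (0.0627).

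Nlgn3 (ENSMUSG00000031302, chromosome X, 101299168 to 101325963) measured 45.8, 77.1 and 107 CPM as the lowest, median and highest of the PBS mice, and 68.7, 119 and 132 CPM in HsTX1[R14A] mice. The order of the mice was close to that for Nlgn2, with PBS mice 103 and 90 lowest and HsTX1[R14A] mice 93 and 92 lowest among the treated. Nlgn3 rose by 0.53 on the log2 scale (standard error 0.14, adjusted p = 0.0181, edgeR), or 1.44-fold. The annotation places Gm21986 on the same strand with 3823 shared exon bases, and in 19 of 21 mice the Nlgn3 count was not whole, against 0 of 21 for the other 8 genes. The split of reads between Nlgn3 and Gm21986 is therefore uncertain. Gm21986 itself measured 2.40 ± 1.61 CPM (SD, n = 12) and 6.36 ± 6.17 CPM (SD, n = 9), small beside Nlgn3.

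Nlgn1 (ENSMUSG00000063887, chromosome 3, 25426215 to 26332460), the neuroligin of excitatory synapses, has the longest transcript of the 9 genes at 11807 bases and varied little between mice, at 106 ± 9.39 CPM (SD, n = 12) and 99.5 ± 11.4 CPM (SD, n = 9). Levels ran from 89.2 through 108 to 119 CPM in PBS mice and from 86.3 through 103 to 115 CPM in HsTX1[R14A] mice. The highest brain of all was that of PBS mouse 103, which was lowest for Nlgn2 and Nlgn3. Treated minus PBS was -0.10 on the log2 scale (standard error 0.07, adjusted p = 0.289, edgeR), and 3 of 9 treated mice were above the PBS median. A gene on the opposite strand, A830092H15Rik, shares 1229 exon bases with Nlgn1, and reads of the pair can be told apart only if counting used the strand, which is not stated. The same limit holds for Nrxn2, which was called, and for Nrxn3. On the opposite strand, Nrxn2 shares 682 exon bases with Slc22a12 and 207 with Gm14964, and Nrxn3 shares 439 with Gm37980. The paper names a directional library kit, which marks the strand, and the labels another kit.

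Lrrtm1 (ENSMUSG00000060780, chromosome 6, 77242689 to 77257791) was the least abundant of the 9 genes in CPM. The lowest, median and highest levels were 23.3, 34.3 and 47.6 CPM in PBS mice and 33.5, 41.7 and 65.4 CPM in HsTX1[R14A] mice. Treated female 71 stood highest, 5 PBS mice lay below every treated mouse, and 8 of 9 treated mice were above the PBS median. Lrrtm1 rose by 0.38 on the log2 scale (standard error 0.11, adjusted p = 0.0197, edgeR), or 1.30-fold. With no sex term the adjusted p was 0.0746.

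Lrrtm2 (ENSMUSG00000071862) lay on the opposite side of 0. Its lowest, median and highest levels were 113, 140.4 and 183 CPM in PBS mice and 97.9, 115 and 152 CPM in HsTX1[R14A] mice. The 4 highest brains were those of PBS mice 103, 73, 90 and 85, and 2 of 9 treated mice were above the PBS median. The treatment difference of -0.24 on the log2 scale (standard error 0.10, adjusted p = 0.0743, edgeR) did not pass the threshold. It passed without PBS mouse 102 (adjusted p = 0.0369) or without HsTX1[R14A] mouse 93 (0.0498) or 92 (0.0459).

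Lrrtm3 (ENSMUSG00000042846, chromosome 10, 63928472 to 64090277) ran from 48.1 through 61.2 to 77.1 CPM in PBS mice and from 40.1 through 65.4 to 74.3 CPM in HsTX1[R14A] mice. Treated minus PBS was -0.01 on the log2 scale (standard error 0.11, adjusted p = 0.937, edgeR). Treated female 71, the highest mouse for Lrrtm1 and Cdh2, was the lowest of all mice for Lrrtm2 and Lrrtm3. Each Lrrtm gene lies within an alpha-catenin gene on the opposite strand, Lrrtm1 in Ctnna2, Lrrtm2 in Ctnna1 and Lrrtm3 in Ctnna3. Only Lrrtm2 shares exon bases with its host (95), and the log2 fold changes of the hosts were -0.01 for Ctnna2, 0.03 for Ctnna1 and 0.32 for Ctnna3 (adjusted p = 0.935, 0.671 and 0.0871, edgeR).

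Cdh2 (ENSMUSG00000024304), N-cadherin, showed the smallest adjusted p of the 9 genes. Its lowest, median and highest levels were 74.4, 92.3 and 116 CPM in PBS mice and 84.4, 127 and 154 CPM in HsTX1[R14A] mice. Of the treated mice, 5 lay above every PBS mouse, and 3 PBS mice lay below every treated mouse. Cdh2 rose by 0.38 on the log2 scale (standard error 0.09, adjusted p = 0.0151, edgeR), or 1.30-fold, and stayed between 0.34 and 0.43 on that scale whichever mouse was dropped. All of Nrxn2, Nlgn2, Nlgn3, Lrrtm1 and Cdh2 were above the PBS median in 8 of 9 treated mice, a pattern shared by 19.4% of all tested genes, and in 0 of the 9 genes did the groups not overlap, as they did not in 0.0184% of all genes. Without PBS mice 103 and 90 the same 5 genes were called, against 17.7% of all genes, at 0.60 for Nlgn2, 0.53 for Nrxn2, 0.43 for Nlgn3, 0.35 for Cdh2 and 0.33 for Lrrtm1.

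With the library name form in the model 4 of the genes were called, all but Nlgn2, against 12.3% of all genes (edgeR). In the 15 mice with the common name form, the 5 genes differed by at least as much as in all mice, with log2 fold changes of 0.81 for Nlgn2, 0.78 for Nrxn2, 0.61 for Nlgn3, 0.45 for Lrrtm1 and 0.44 for Cdh2, but adjusted p-values were between 0.0563 and 0.0962 and 0 of 16305 genes were called there (edgeR), with 35.6% of genes at an unadjusted p of at most 0.05. Among the 6 mice with the other form these values were 0.36, 0.23, 0.21, 0.16 and 0.08, with adjusted p-values of 0.855 to 0.914 and again 0 genes called, 3.29% of genes having an unadjusted p of at most 0.05. Lrrtm2 stood at -0.36 in the first set of mice and at 0.12 in the second.

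In PBS mice alone, where treatment plays no part, the levels of 7 of the 9 genes were correlated with the length slope of the library by Pearson's r and 6 of the 9 by Spearman's rho (permutation tests, p adjusted over all genes). Beside these counts, 55.3% of all genes passed by r and 47.6% by rho. Nlgn3 had an r of 0.99 and a rho of 0.97 (adjusted p = 7.89e-05 and 0.00021, permutation tests, n = 12), Nlgn2 an r of 0.97 and a rho of 0.92 (7.89e-05 and 0.000703), and Nrxn2 an r of 0.96 and a rho of 0.93 (7.89e-05 and 0.00065). The raw p behind each of these r values was 1e-05, the smallest that 100000 permutations can give. Taken without sign, r was larger for Nlgn3 than for 99.4% of all genes, for Nlgn2 than for 96.1% and for Nrxn2 than for 92.6%, while the other 6 genes lay between 27.8% and 59.2%. Without PBS mice 103 and 90, the farthest from the median slope, r was 0.96 for Nlgn3, 0.92 for Nlgn2 and 0.88 for Nrxn2, and within the 10 PBS mice of the common name form it was 0.99, 0.97 and 0.96. Lrrtm2 and Nlgn1 ran the other way, at r = -0.77 (adjusted p = 0.00787) and r = -0.66 (0.0362, permutation tests), although rho for Nlgn1 did not pass (-0.58, adjusted p = 0.094, permutation test) and r was -0.53 and -0.54 without mice 103 and 90. Cdh2 and Lrrtm1 had r = 0.71 (adjusted p = 0.0212) and r = 0.67 (0.0317, permutation tests). Nrxn3 (r = 0.42, adjusted p = 0.237) and Lrrtm3 (r = -0.56, 0.0991) did not pass in these permutation tests. With the GC slope in place of the length slope, r for Lrrtm1 did not pass (0.59, adjusted p = 0.0762, permutation test). For Lrrtm2 it was then -0.91 (adjusted p = 0.000462, permutation test), larger without sign than for 86.7% of all genes.

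**Figure D2:**
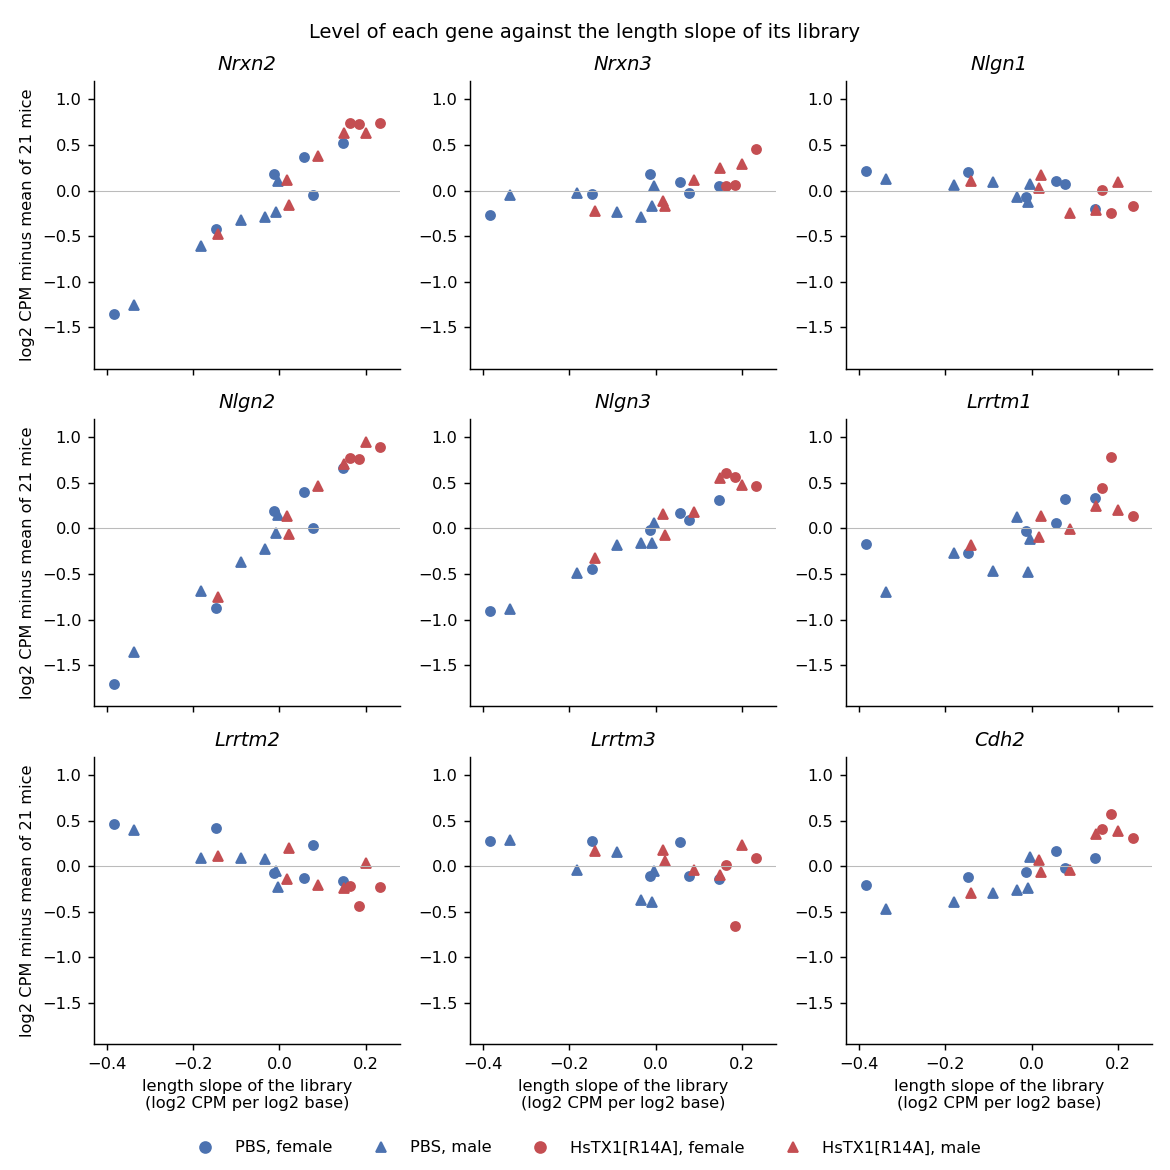
Level of each gene in each of the 21 mice, as log2 CPM minus the mean of all mice, against the length slope of the library in log2 CPM per log2 base. Colors give treatment and symbols sex, and across PBS mice Nrxn2, Nlgn2 and Nlgn3 climb with the slope while Nlgn1 and Lrrtm2 descend.

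With the length slope added to the model as a covariate, 0 of the 9 genes and 0 of the 16303 tested were called (edgeR), with 11.4% of genes at an unadjusted p of at most 0.05. On the log2 scale Nlgn2 then turned to -0.06 (standard error 0.08, adjusted p = 0.781), and those of Nrxn2, Nlgn3, Lrrtm1 and Cdh2 were 0.05, 0.09, 0.17 and 0.18 (adjusted p = 0.834, 0.573, 0.528 and 0.377). Of the 9, only Cdh2 had an unadjusted p under 0.05 in that fit. A slope built on GC content in place of length gave 0 calls as well, with 9.19% of genes at an unadjusted p of at most 0.05, and again only Cdh2 among the 9. With 1 surrogate variable, a factor estimated from the data, Nlgn3 at 0.25 and Cdh2 at 0.26 were called (adjusted p = 0.0315 and 0.0405, edgeR) against 6.77% of all genes. When instead each library's own trend on length and GC content was removed from the values, 4 of the genes stayed called against 15.3% of all genes: Nlgn3 at 0.18, Cdh2 at 0.21, Lrrtm1 at 0.28 and Nlgn2 at 0.23 (adjusted p = 0.0207, 0.0326, 0.0345 and 0.0470, edgeR). Nrxn2 went to 0.0043 (adjusted p = 0.975) and Nrxn3 changed sign to -0.14 (adjusted p = 0.332). Treatment and length slope overlap in these mice, and their shares in the differences cannot be told apart by these fits.

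**Figure D3:**
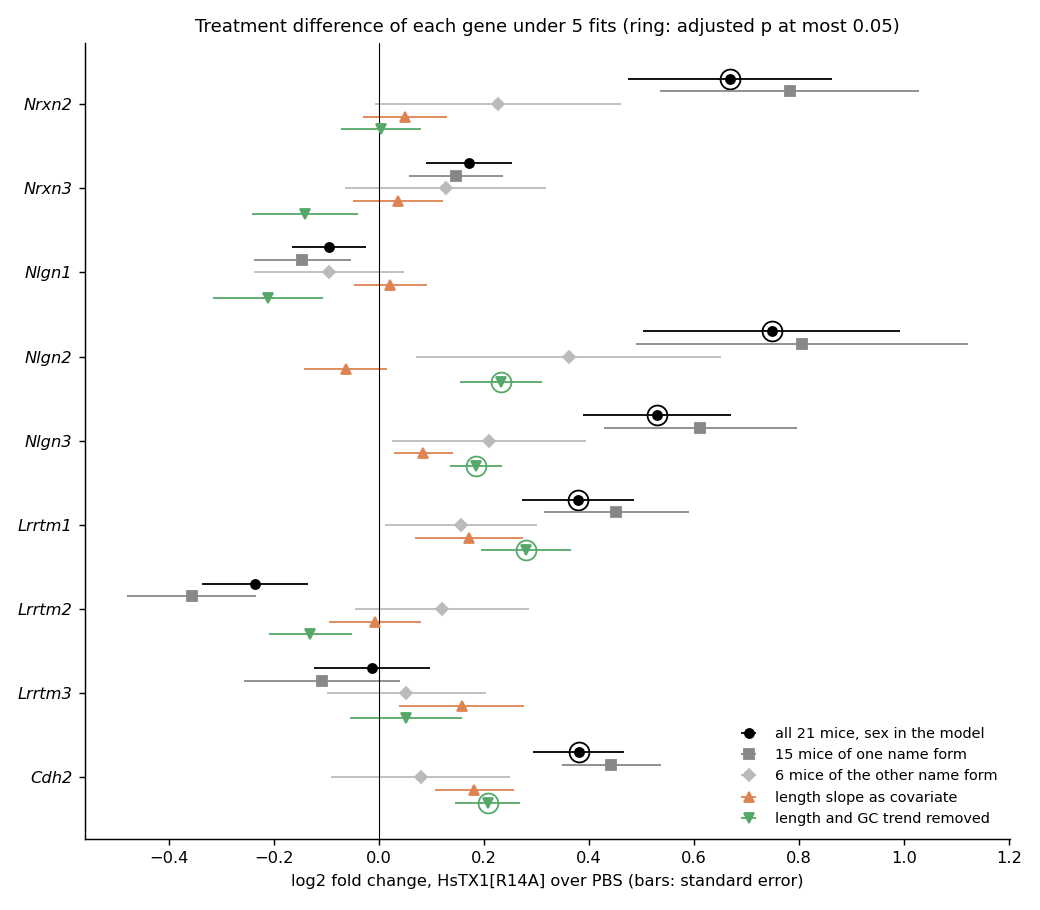
Treatment difference of each gene on the log2 scale (x axis, HsTX1[R14A] over PBS) under 5 fits, with standard errors as bars and rings at an adjusted p of at most 0.05. With the length slope as a covariate Nrxn2, Nlgn2 and Nlgn3 lie between -0.06 and 0.09, and Lrrtm1 and Cdh2 at 0.17 and 0.18.

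Ratios between related genes compare transcripts within the same library. Only 5 such ratios were tested, and the share of other gene pairs that would pass is not known. In PBS mice the log2 ratio of Nlgn2 to Nlgn1 was 0.15 ± 0.81 (SD, n = 12), ranging from -1.41 to 1.37. Treated mice were at 0.99 ± 0.66 (SD, n = 9), from -0.35 to 1.58, and averaged over the sexes the groups differed by 0.96 (exact permutation test within sex over 77616 labelings, two-sided, p = 0.0141, adjusted p = 0.0177 over 5 ratios). Nlgn3 to Nlgn1 differed by 0.68 (adjusted p = 0.0127, exact permutation test), Nrxn2 to Nrxn3 by 0.57 (0.0131) and Lrrtm1 to Lrrtm2 by 0.65 (0.0127), while Lrrtm3 to Lrrtm2 differed by 0.20 and did not pass (0.069, exact permutation test). For Nrxn2 to Nrxn3 and for Lrrtm1 to Lrrtm2, 8 of 9 treated mice were above the PBS median, and for the other 3 ratios 7 of 9. These differences were 1.04, 0.79, 0.70 and 0.84 for the first 4 ratios within the common name form, and 0.27, 0.20, 0.05 and -0.02 within the 6 mice of the other form. Lrrtm3 to Lrrtm2 differed by 0.23 within the common form and by -0.12, on the opposite side of 0, within the other. The ratios carried the length slope too, with r = 0.96, 0.98, 0.97 and 0.86 over the PBS mice, and with that slope regressed out the difference was -0.04 for Nlgn2 to Nlgn1, 0.05 for Nlgn3 to Nlgn1, 0.01 for Nrxn2 to Nrxn3 and 0.14 for Lrrtm1 to Lrrtm2 (exact permutation p = 0.728, 0.454, 0.886 and 0.311).

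**Figure D4:**
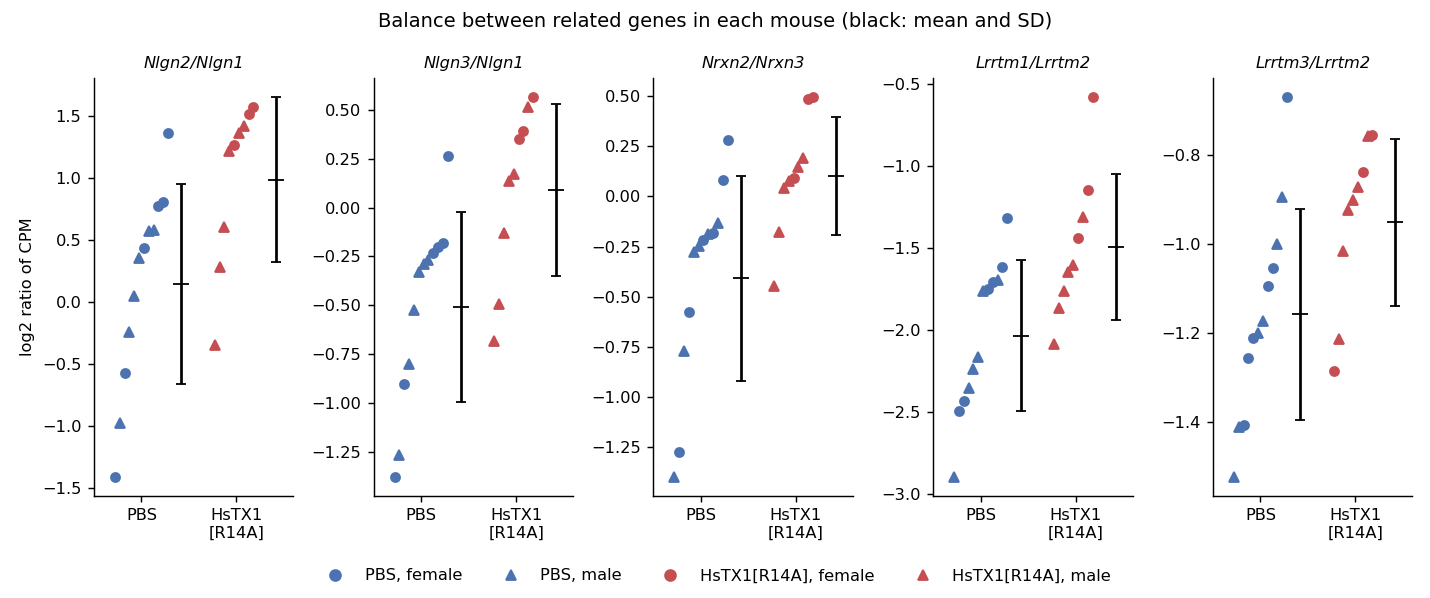
Log2 ratio of CPM between related genes in each mouse, with mean and SD in black, for PBS and HsTX1[R14A] mice; circles are females and triangles males, and each panel has its own axis. The group means differ by 0.57 to 0.96 after averaging over sex in the first 4 panels, and single mice of the groups overlap in every panel.

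As a share of the summed per-kb level of the 3 neuroligins, Nlgn2 made up 53.9 ± 9.85% in the 12 PBS mice and 62.6 ± 7.15% in the 9 treated mice (mean ± SD), and Nlgn1 24.1 ± 9.22% and 15.6 ± 6.04%. The share of Nlgn3 lay between 20.4% and 23.4% in PBS mice and averaged 21.8 ± 1.68% in treated mice. Of the summed level of Lrrtm1, Lrrtm2 and Lrrtm3 alone, Lrrtm2 held 46.9 ± 4.41% and 40.8 ± 3.79%, Lrrtm1 22.4 ± 5.19% and 28.3 ± 7.02%, and Lrrtm3 30.7 ± 3.54% and 30.9 ± 4.29%. These shares carry the limits of the per-kb scale, are descriptions and were not tested.

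Between the sexes, 0 of the 9 genes passed at an adjusted p of at most 0.05, where 0.0552% of all genes did (edgeR). At an unadjusted p of at most 0.05, 3 of the 9 were higher in females, against 10.8% of all genes: Lrrtm1 by 0.38 on the log2 scale (adjusted p = 0.400, edgeR), Cdh2 by 0.28 (0.446) and Nrxn2 by 0.42 (0.446). X-linked Nlgn3 differed by 0.26 (adjusted p = 0.446, edgeR). The interaction of treatment with sex was past an adjusted p of 0.05 for 0 of the 9 genes and for 0% of all genes, and at an unadjusted p for 0 of the 9 and 1.66% of all genes. Its largest values were -0.37 for Lrrtm3 (standard error 0.22) and -0.33 for Lrrtm2 (standard error 0.20). In females alone the log2 fold change of Lrrtm2 was -0.44 and that of Cdh2 0.45, and in males alone -0.10 and 0.34, with 0 genes called within either sex (edgeR), where 20.4% of genes in females and 27.6% in males had an unadjusted p of at most 0.05.

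The genes fell into sets that varied together from mouse to mouse. After the mean of each treatment-by-sex group was subtracted, log2 CPM over the 21 mice correlated at r = 0.98 between Nrxn2 and Nlgn2, 0.98 between Nrxn2 and Nlgn3 and 0.97 between Nlgn2 and Nlgn3, and Cdh2 followed these at 0.76 to 0.81. Lrrtm2 ran against them at -0.80 to -0.84, and with Nlgn1 at 0.72. Lrrtm3 followed Nlgn1 at 0.71 and opposed Lrrtm1 at -0.69. The points share libraries and thus the length slope of each library, so these values are given as a description. The genes outside the 9 that were most like them by this measure were Kdm5c for Nlgn2 (r = 0.99), Sf3b4 for Nrxn2 (0.99), Nisch for Nlgn3 (0.99), Ctr9 for Cdh2 (0.95), Abce1 for Lrrtm2 (0.94), Wdr17 for Lrrtm3 (0.93), Wbscr17 for Lrrtm1 (0.92), Scrn3 for Nlgn1 (0.86) and Fstl4 for Nrxn3 (0.82).

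Among 100 other genes of synaptic adhesion in 7 lists, 44 rose and 5 fell with treatment, or 49% called against 31.6% of all genes tested (edgeR). Their median log2 fold change was 0.28, with 82 of 100 above 0, where the median of all genes was -0.01. Adding the length slope brought the median to 0.02 and left 0 of the 100 called, and with the trend on length and GC content removed 32 were.

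As shares called in either direction, to be read against that 31.6%, the lists ran from 37.5% for intracellular partners, 40% for other cadherins and 43.5% for LAR-type phosphatases and their ligands through 50% for neurexin ligands and for catenins to 60% for latrophilins, teneurins and FLRTs and 66.7% for immunoglobulin proteins. No test was made of whether a list differs from all genes. Of 20 proteins that bind or bridge neurexins or their partners, 10 rose and none fell. They included Cbln4, a secreted cerebellin that links neurexins to postsynaptic receptors, at a log2 fold change of 0.46, and Dag1, dystroglycan, at 0.63 (adjusted p = 0.0156 and 0.0188, edgeR). Of 23 receptor phosphatases of the LAR type and their ligands, 9 rose and 1 fell. Slitrk3, which takes part in inhibitory synapse formation, measured 44.4 ± 7.54 CPM in PBS and 56.4 ± 9.24 CPM in treated mice (0.37 on the log2 scale, adjusted p = 0.0183), and Lrfn2, a ligand of the excitatory postsynapse, rose by 0.49 (adjusted p = 0.0151, edgeR).

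Of 10 latrophilins, teneurins and FLRTs, which form another adhesion complex across the cleft, 6 rose and none fell, with Adgrl3 at 0.46 and Tenm4 at 0.87 (adjusted p = 0.0163 and 0.0153, edgeR). Of 15 immunoglobulin adhesion proteins, 9 rose, with the largest named value for Nectin1 at 1.08 (standard error 0.27, adjusted p = 0.0166). Cadm2 fell by 0.43 on the log2 scale, from 413 ± 71.1 to 314 ± 44.9 CPM (adjusted p = 0.0151, edgeR). The other 4 genes that fell, picked out after their values were seen, were Slitrk4 at -0.28, Cdh12 at -0.45, Lin7c at -0.30 and Sdcbp at -0.26 (adjusted p = 0.0288, 0.0310, 0.0317 and 0.0433, edgeR). The longest transcripts of the 5 genes that fell had a GC content of 34.7% to 41.5%. Other genes of these lists within that range were called higher or not called, and a relation to GC content was not tested.

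Around Cdh2, 3 of 10 other cadherins rose and 1 fell, with Cdh4 at 0.68 and Cdh13, a cadherin anchored in the membrane by a lipid, at 0.35 (adjusted p = 0.0189 and 0.0283, edgeR). Of 6 catenins, which tie cadherins to the cytoskeleton, 3 rose, among them Ctnnb1, beta-catenin, at 0.33 and Ctnnd1, p120 catenin, at 0.47 (adjusted p = 0.0271 and 0.0186). Of 16 intracellular partners of neurexins and neuroligins, 4 rose and 2 fell, the named ones being the scaffold Magi2 at 0.41 and Lhfpl4, which couples neuroligin 2 to GABA-A receptors, at 0.55 (adjusted p = 0.0255 and 0.0189, edgeR).

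**Figure D5:**
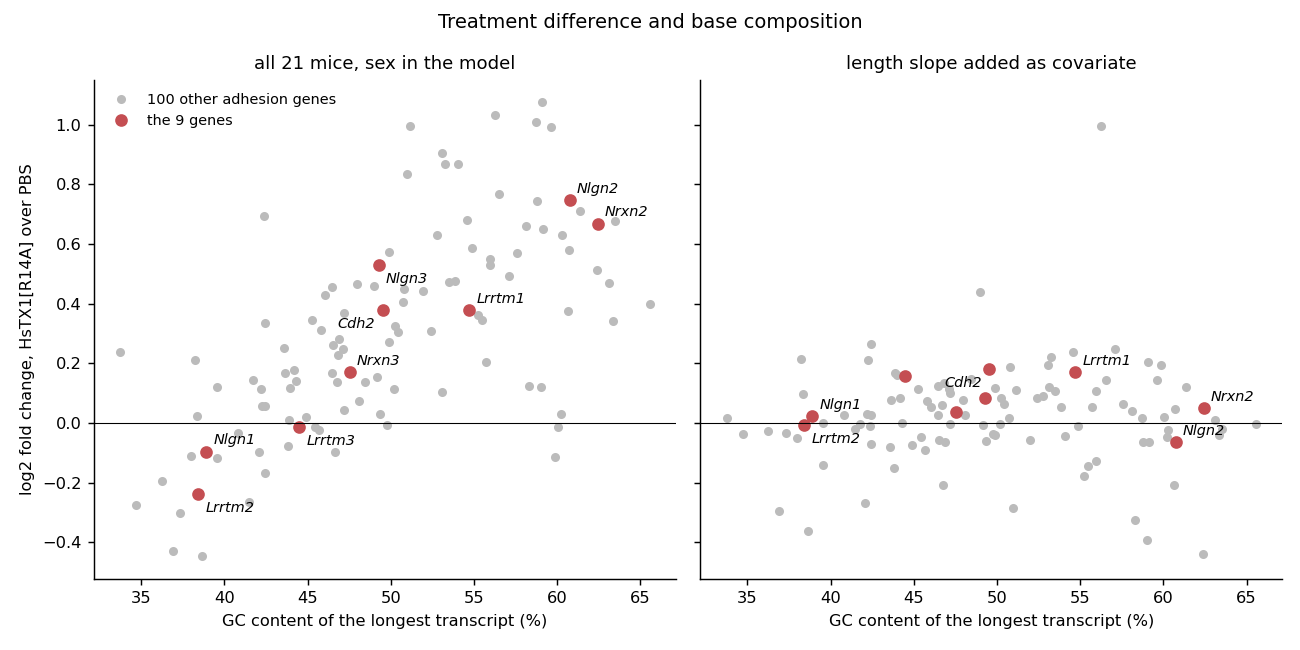
Treatment difference (log2, HsTX1[R14A] over PBS) against the GC content (%) of the longest transcript for the 9 genes, in red, and 100 other adhesion genes, in gray. On the left, with sex in the model, of the 9 genes Lrrtm2 and Nlgn1 have the lowest values and GC content and Nrxn2 and Nlgn2 the highest, and on the right, with the length slope added as a covariate, the 9 genes lie between -0.06 and 0.18.

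Some markers of brain cell types also differed with treatment, and their part in the differences above was not tested. Called in either direction were 50% of astrocyte and of oligodendrocyte markers, 40% of neuron markers and 25% of microglia and of endothelial markers, beside 31.6% of all genes. Of 10 neuron markers 4 rose and none fell, with Nefm at 0.61 and Eno2 at 0.37 (adjusted p = 0.0217 and 0.0175, edgeR), and their summed level ran from 5891 to 8680 CPM in PBS mice and from 7205 to 10359 CPM in HsTX1[R14A] mice. While 8 of the 10 lay above 0, their median log2 fold change was 0.14. Stmn2 and Snap25, picked out after their values were seen, were at -0.19 and -0.12 (adjusted p = 0.143 and 0.470, edgeR). Of 8 oligodendrocyte markers 4 fell and none rose, with Opalin at -0.99 and Mobp at -0.67 (adjusted p = 0.0145 for each), and the sums were 4396 to 6728 and 3315 to 4907 CPM. Of 8 astrocyte markers 4 fell, with S100b at -0.72 and Gfap at -0.59 (adjusted p = 0.0152 and 0.0312), at sums of 3331 to 4986 and 3339 to 5038 CPM. Other astrocyte markers, picked out after their values were seen, lay on the other side of 0, Slc1a2 at 0.32 and Aldh1l1 at 0.15 (adjusted p = 0.133 and 0.348, edgeR). Of 8 microglia markers 2 fell, P2ry12 at -0.65 and C1qb at -0.43 (adjusted p = 0.0151 for each), with sums of 406 to 588 and 342 to 515 CPM, while Csf1r, likewise picked out afterwards, was at 0.28 (adjusted p = 0.134, edgeR). Of 8 endothelial markers 2 rose, Flt1 at 0.64 and Slc2a1 at 0.40 (adjusted p = 0.0191 and 0.0237, edgeR), with sums of 85.7 to 153 and 88.2 to 174 CPM. With the length slope in the model, 0 markers of any of these types were called, as were 0 of all 16303 genes tested. With the trend on length and GC content removed, 15.3% of all genes were called. Among the markers these were 5 of 8 for oligodendrocytes, 3 of 8 for microglia, 2 of 8 for astrocytes, 2 of 8 for endothelium and 2 of 10 for neurons.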

How the data were processed

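The authors extracted RNA from whole brain, aligned the reads to GRCm38 with STAR and deposited estimated counts per gene from Salmon, without normalization; the versions are not given in the sources used here, and the submitters' processing notes also list limma. These counts, of which 90.496% lay within 0.01 of a whole number, were rounded. The labels name another library kit than the paper's methods. Columns of the authors' own comparison (fold changes, p-values) and 53 other per-sample columns (37 of CPM, 16 of counts of other libraries) were not used. Mice were grouped by their labels. After filterByExpr and TMM scaling, edgeR 4.0.16 (R 4.3.3) fitted treatment and sex, with calls at an adjusted p of 0.05. The standard error is the log2 fold change over the root of F. Log2 CPM carries a prior count of 2. Ratios of counts with a pseudocount of 0.5 were an alternative to ratios of CPM. Transcript length and GC content come from the longest GENCODE transcript, found for 99.5% of tested genes. Alternatives were limma 3.58.1 with voom, DESeq2 1.42.0, other scaling and filters, sample weights, a surrogate variable from sva 3.50.0, covariates for name form and slopes, fits within a name form and fits that drop a mouse. Total counts were 14917171 or more per mouse. Replicates are separate mice with 1 library each, so the spread between mice and that between libraries cannot be told apart. The procedure was tested on simulated data. The 9 genes and the lists were chosen with earlier results of these data known. Genes named from each list are the 2 of smallest treatment p whose mean log2 CPM reached 1, and for likeness the gene with the highest r. Correlations with the length slope were adjusted over all genes, a choice made after seeing the data, since the plan was to adjust over the 9, and 1 gene at a constant level in PBS mice was left out. Nectin1 was found under its older symbol by gene ID. Some members of the lists are not named here.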

Additional observations from a re-analysis of the deposited data

How the results depend on the processing

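Of the 9 genes, 5 were called. This count was 3 with no sex term, 2 with 1 surrogate variable, and 0 with the length slope, the GC slope or both as covariates and within the common or the other name form. The GC slope and the fit without PBS mice 103 and 90 were added after the data were seen. Leaving out single mice gave 4 (PBS mouse 90 or one of the treated mice 98, 88 and 81) to 6 (PBS mouse 102 or one of the treated mice 93 and 92), and 9 of the 16 other alternatives left it within 1.5 times. Over all genes, 5144 calls became 2984 with no sex term, 1999 with the name form as covariate, 0 with either slope or both, 1104 with 1 surrogate variable, 2501 with the length and GC trend removed, 0 within each name form, 2887 without PBS mice 103 and 90, and 2289 (without PBS mouse 90) to 6614 (without HsTX1[R14A] mouse 93) with each mouse left out. Without HsTX1[R14A] mouse 98, 71, 88 or 81 it was 3005, 3332, 3121 and 3263. Over the 100 other adhesion genes, 49 calls became 27 with no sex term, 20 with the name form as covariate, 0 with the slopes, 10 with 1 surrogate variable, 32 with the trend removed, 0 within each name form, 32 without PBS mice 103 and 90, and 24 (without PBS mouse 90) to 58 (without HsTX1[R14A] mouse 93) with each mouse left out; without HsTX1[R14A] mouse 88 or 81 it was 30 and 28. The counts for sex and for the interaction stayed at 0 under all 5 alternatives and with each mouse left out. The causes of these shifts were not tested, and the fits within a name form also held fewer mice.

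Signs changed as follows. Nlgn2 was -0.063 with the length slope and -0.0689 with the length and GC slopes as covariates. Nlgn1 was 0.0224 with the length slope, 0.0338 with the GC slope and 0.027 with the length and GC slopes. Nrxn3 was -0.14 with the trend removed. Lrrtm2 was 0.0248 with the GC slope, 0.00578 with the length and GC slopes and 0.12 within the other name form. Lrrtm3, at -0.01, was 0.0604 with sample quality weights, 0.16 with each of the slopes, alone or together, 0.12 with 1 surrogate variable, 0.0515 with the trend removed, 0.0527 within the other name form, 0.0508 without PBS mice 103 and 90, and -0.0567 to 0.0656 with each mouse left out. Of the ratios, Nlgn2 to Nlgn1 changed sign to -0.0361 with the length slope regressed out, and within the other name form, where no test was run, Lrrtm1 to Lrrtm2 was -0.02 and Lrrtm3 to Lrrtm2 -0.12. Other ratios kept their sign but no longer passed with the length slope regressed out, Nlgn3 to Nlgn1 at 0.0541, Nrxn2 to Nrxn3 at 0.0124 and Lrrtm1 to Lrrtm2 at 0.14. Lrrtm3 to Lrrtm2 passed the threshold within the common name form, at 0.23, and when PBS mouse 104 or 102 or treated mouse 71 or 92 was dropped, within a range of 0.15 to 0.29 with each mouse left out. No paired analysis was possible because the groups compared share no mouse numbers and the labels do not give the cage, within which the paper says mice were randomized to treatment.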
